A study of Mus musculus with 8 samples.

Results

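The smooth muscle contractile and SRF programme was followed here through 33 genes chosen by symbol. The choice was made with earlier results of these data known, so shares over all genes are no independent background for member counts. All 33 were found among the 53801 rows of the count table, each in a single row, and all 33 passed the filter on low counts. The RNA came from small intestinal stromal cells of mice, collected by flow sorting as CD45-, CD31- and YFP+ cells. One group was sorted as PDGFRα- (4 libraries) and the other as PDGFRα+ (4 libraries). Both groups came from mice labelled LTBRfloxedPDGFRa/YFP, so all 8 libraries shared that floxed allele and the YFP label. Age, strain background, the driver of recombination and the number of mice behind a library were not given in the sources used here. Accordingly, p-values below set a group difference against the spread between these libraries, and that spread may be technical.

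Serum response factor (SRF) is a DNA-binding protein that recognises a short motif called the CArG box. Its coactivator myocardin, encoded by Myocd, drives genes for smooth muscle actin, myosin and their accessory proteins, while the myocardin-related factors link SRF to the state of the actin cytoskeleton and to genes of adhesion and the cell cortex. In the gut wall, contractile genes are strongest in the muscle layers, and are also used by pericytes, vascular muscle and some subepithelial fibroblasts.

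Total counts ran from 12.9 to 35.1 (in units of 1e+06) per library, and the 33 genes took 0.327% to 0.768% of all counts. Fibroblast markers were abundant in every library (8 genes, summed level 119065 to 168795 CPM in PDGFRα- and 88506 to 114303 CPM in PDGFRα+ cells, where CPM is counts per 1e+06 of scaled library size). Pdgfra RNA itself was at 652 ± 124 and 597 ± 69.2 CPM (SD, n = 4 each, edgeR adjusted p = 0.971), and was lower in the PDGFRα+ library at 3 of 4 numbers. Pdgfra RNA therefore did not separate the groups in the way of their sort labels. RNA was not the signal sorted on, so its level does not test the sort. The groups are named below by those labels.

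The promoter windows of the genes on which the results turn are shown first, because the CArG box is the letter pattern through which SRF binds. RefSeq windows on GRCm38.p6, from 250 bases before to 50 after a start site, were present for 29 of the 33 genes (38 windows); Myocd, Actg2, Tagln and Myh11 were not in the table. A full CArG box stood in 7 of 29 genes (24.14%), against 1.806% of 27025 genes with a window. The box has 10 bases and its class reads alike on both strands. Capitals mark full boxes in the Fhl2, Srf and Fhl1 windows, and boxes with 1 base off the class in the Acta2 and Pdlim3 windows.
Fhl2, chr1:43196712-43197011, minus strand: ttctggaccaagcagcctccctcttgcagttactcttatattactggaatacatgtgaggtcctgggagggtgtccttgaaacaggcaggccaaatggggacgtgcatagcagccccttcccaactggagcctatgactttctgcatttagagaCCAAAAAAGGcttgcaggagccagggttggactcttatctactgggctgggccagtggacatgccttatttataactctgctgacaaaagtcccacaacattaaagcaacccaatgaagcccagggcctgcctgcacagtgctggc
Fhl2, chr1:43163912-43164211, minus strand: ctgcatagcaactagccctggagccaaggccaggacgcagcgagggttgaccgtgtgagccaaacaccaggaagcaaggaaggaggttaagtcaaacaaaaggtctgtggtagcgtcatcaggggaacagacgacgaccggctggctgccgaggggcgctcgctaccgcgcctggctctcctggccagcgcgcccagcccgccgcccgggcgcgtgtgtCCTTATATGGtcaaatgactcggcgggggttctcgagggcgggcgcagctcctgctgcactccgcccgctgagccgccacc
Srf, chr17:46556113-46556412, minus strand: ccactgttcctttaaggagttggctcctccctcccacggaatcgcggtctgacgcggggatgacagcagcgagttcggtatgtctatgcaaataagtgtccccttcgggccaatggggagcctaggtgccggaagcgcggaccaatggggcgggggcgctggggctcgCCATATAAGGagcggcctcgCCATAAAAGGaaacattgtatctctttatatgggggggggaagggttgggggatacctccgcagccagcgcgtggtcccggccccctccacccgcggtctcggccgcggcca
Fhl1, chrX:56779433-56779732, plus strand: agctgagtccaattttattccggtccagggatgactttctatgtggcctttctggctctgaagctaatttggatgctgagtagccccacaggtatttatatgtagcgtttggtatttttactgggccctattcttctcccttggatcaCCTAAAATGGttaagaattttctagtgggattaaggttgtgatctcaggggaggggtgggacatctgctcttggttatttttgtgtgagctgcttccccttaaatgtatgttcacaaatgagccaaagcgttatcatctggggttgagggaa
Acta2, chr19:34255324-34255623, minus strand: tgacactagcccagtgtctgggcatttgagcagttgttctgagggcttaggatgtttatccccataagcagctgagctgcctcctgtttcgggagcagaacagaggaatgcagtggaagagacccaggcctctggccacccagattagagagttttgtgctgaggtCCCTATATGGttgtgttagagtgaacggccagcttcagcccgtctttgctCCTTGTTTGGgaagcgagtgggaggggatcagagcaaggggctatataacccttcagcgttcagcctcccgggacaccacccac
Pdlim3, chr8:45885237-45885536, plus strand: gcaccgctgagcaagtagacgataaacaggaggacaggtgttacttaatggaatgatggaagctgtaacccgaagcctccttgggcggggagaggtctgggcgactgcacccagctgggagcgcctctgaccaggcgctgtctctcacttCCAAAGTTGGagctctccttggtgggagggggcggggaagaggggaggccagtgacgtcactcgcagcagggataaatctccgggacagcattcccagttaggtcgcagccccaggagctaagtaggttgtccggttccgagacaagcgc

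Positions below are those of a box's first base relative to the start site. Fhl2 had a full box upstream of each of its 2 starts, CCAAAAAAGG at -96 and CCTTATATGG at -31. Srf had 2 boxes, CCATATAAGG at -82 and CCATAAAAGG at -62. Fhl1 held CCTAAAATGG at -102, Myl9 CCTAATAAGG at -161, Vcl CCTTATAAGG at -227 and Myl6 CCTTATATGG at -50. The other window of Fhl1 and that of Myl6 held no full box. Ldb3 held CCATTTATGG in both of its overlapping windows. The Acta2 window had no full box and 2 boxes with a single base off the class, CCCTATATGG and CCTTGTTTGG, and Pdlim3 had 1 such box. A box with 1 base off occurred in 19.87% of all 32851 windows and in 28.95% of the 38 member windows. By role, full boxes stood in 2 of 2 regulators with a window, 2 of 3 myosin genes, 3 of 10 adhesion and Z-disc type genes and 0 of 7 actin and thin filament genes. Ppp1r12b, Ppp1r14a, Hspb6, Kcnmb1, Des, Synm and Npnt had none. A match is a match of letters and no measure of binding.

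Of the 3 regulators, Fhl2 passed in both fits, Myocd with the block alone and Srf in neither, and regulators were not tested against contractile genes. Fhl2, which encodes a LIM-domain protein that binds SRF and other transcription factors, rose 4.17-fold in PDGFRα+ cells. It was the only member past the threshold in the comparison of groups alone, where 1 of 33 members was called higher and 0 lower (edgeR quasi-likelihood test, Benjamini-Hochberg adjusted p under 0.05). Over all 15643 genes tested, 0.243% were called, 0.192% higher and 0.0511% lower, in that fit. At an unadjusted p under 0.05 there were 7 members, against 6.95% of all genes, and DESeq2 and limma-voom without the number also called 1 member higher and 0 lower. With the replicate number as a block, 6 members were called higher, Fhl2, Myocd, Pdlim3, Fhl1, Tpm1 and Cald1, and 0 lower, against 1.34% and 0.933% of all genes (2.27% in either direction). Unadjusted p values under 0.05 numbered 15 in the blocked fit, against 11.7% of all genes, and DESeq2 with the block called 10 members higher and 1 lower, against 2.52% and 2.73% of 15339 genes.

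The block is given beside the other fit because the deposited comparison uses it. Over 29254 genes, DESeq2 dispersions refitted with number and group were within 8.7e-04% of those in the authors' deposited table, whereas a refit with group alone was off by a median of 13.4%. The labels do not say what libraries with the same number share. The authors' deposited table lists 10 of the 33 genes as higher and 1, Actg2, as lower at an adjusted p under 0.05, where 2.30% and 2.52% of 16785 genes are so listed. With the block, leaving out any one of the numbers left 3 or 4 members called. Fhl2, Myocd and Pdlim3 were called each time, Tpm1 only without number 2, and Cald1 and Fhl1 in none of these fits.

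**Figure D1:**
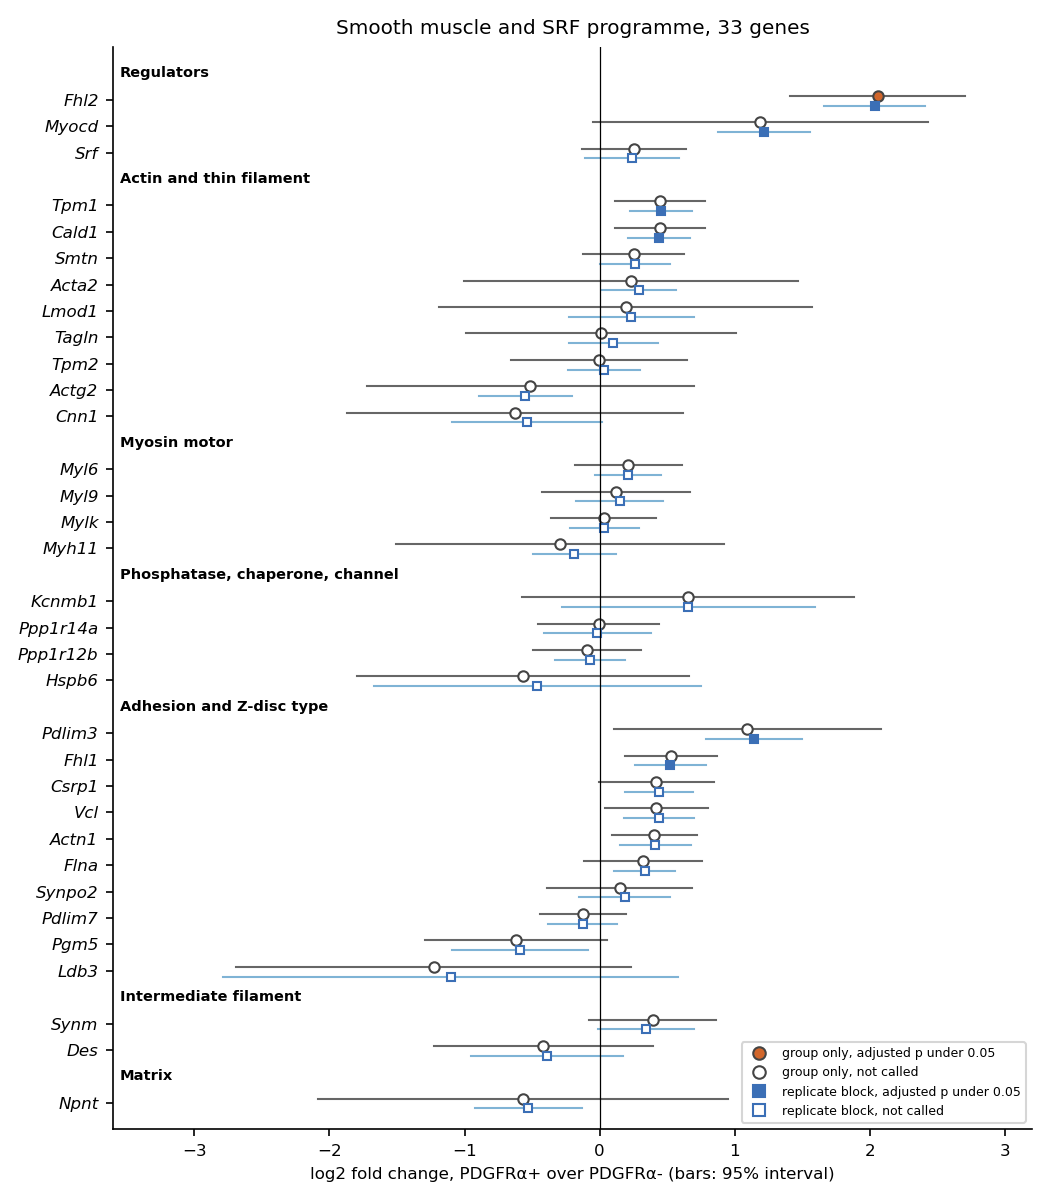
Log2 fold change of PDGFRα+ over PDGFRα- for the 33 genes by role, with 95% intervals; circles are the comparison of groups alone and squares the fit with the replicate number as a block, filled where the adjusted p is under 0.05. Fhl2 lies at 2.06 in the first fit with an interval from 1.41 to 2.71, and the intervals of Acta2, Lmod1, Myh11 and Npnt are much narrower with the number in the model.

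Fhl2 (ENSMUSG00000008136, chromosome 1, 43123074 to 43196984, GRCm38) stood at 27.3, 25.9, 37.0 and 16.2 CPM in PDGFRα- libraries 1 to 4 and at 99.6, 164, 115 and 63.7 CPM in PDGFRα+ libraries 1 to 4. Every PDGFRα+ library lay above every PDGFRα- library. The means were 26.6 ± 8.50 and 111 ± 41.6 CPM (SD, n = 4 each), a log2 fold change of 2.06 ± 0.30 (SE, edgeR adjusted p = 0.0149). Per kilobase of exon, its level went from 14.0 to 58.3 RPKM, from below to above that of Srf (17.8 and 21.3 RPKM). The edgeR adjusted p of Fhl2 was 0.0799 without PDGFRα- library 2 and 0.05002 without PDGFRα+ library 3, with log2 fold changes of 2.05 and 2.04, and 1.04e-05 with the block.

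Myocd (ENSMUSG00000020542, chromosome 11, 65176561 to 65269989) stood at 10.3, 51.4, 35.9 and 26.7 CPM in PDGFRα- libraries 1 to 4 and at 27.5, 121, 75.3 and 59.5 CPM in PDGFRα+ libraries 1 to 4. The ranges overlapped, since the PDGFRα+ library numbered 1 lay below 2 of the PDGFRα- libraries, but in each of the 4 same-numbered pairs the PDGFRα+ library was more than 2 times higher. Myocd differed by a log2 fold change of 1.19 ± 0.54 (SE, edgeR adjusted p = 0.752) for groups alone, and 1.22 ± 0.16 (SE, edgeR adjusted p = 6.0e-04) with the block. Leaving out each number in the blocked fit gave values from 1.15 to 1.26 and adjusted p values up to 0.0127.

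Srf (ENSMUSG00000015605, chromosome 17, 46548329 to 46556175), the gene of the DNA-binding partner, did not pass either test. Its level was 52.5, 53.4, 53.8 and 46.4 CPM in PDGFRα- libraries 1 to 4 and 54.9, 72.9, 49.5 and 68.8 CPM in PDGFRα+ libraries 1 to 4. PDGFRα- libraries lay close together, and the PDGFRα+ libraries numbered 1, 2 and 4 lay above all of them, the first by little. For Srf, a log2 fold change of 0.26 ± 0.18 (SE, edgeR adjusted p = 0.907) resulted. Its 95% interval ran from -0.13 to 0.64. The difference between Srf and Fhl2 in response was not tested.

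**Figure D2:**
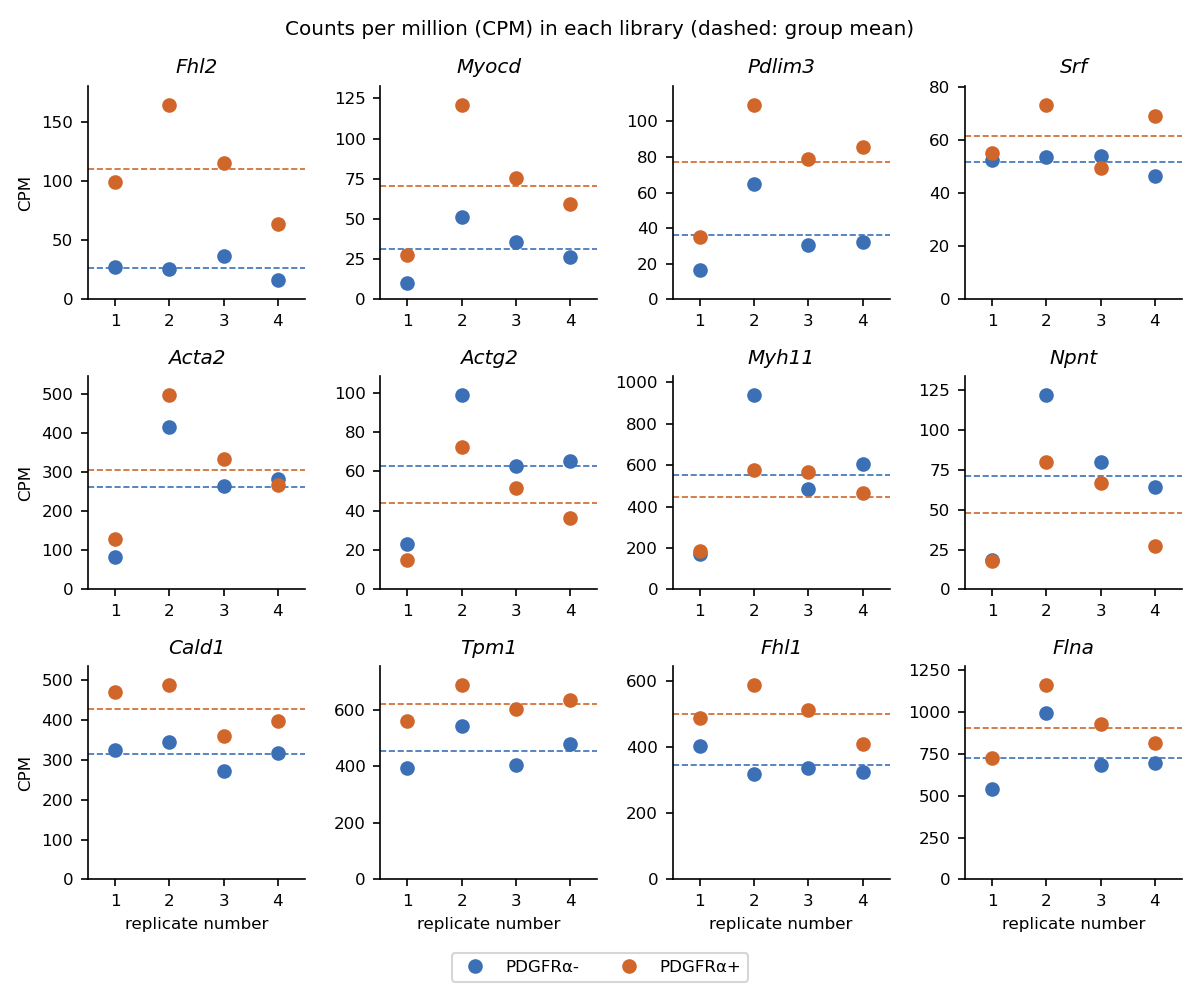
CPM (y axis, linear, from 0) of 12 members in each library against the replicate number, blue for PDGFRα- and orange for PDGFRα+, with dashed lines at the group means. Fhl2 is higher in all 4 PDGFRα+ libraries, while Myocd, Acta2, Actg2, Myh11 and Npnt are lowest in both libraries numbered 1 and highest in those numbered 2.

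Among the 9 actin and thin filament genes, none passed the comparison of groups alone (2 at an unadjusted p under 0.05), and Tpm1 and Cald1 passed with the block. Tpm1, a tropomyosin gene used in muscle and other cells, stood at 395, 542, 406 and 481 CPM in PDGFRα- libraries 1 to 4 and at 560, 687, 603 and 635 CPM in PDGFRα+ libraries 1 to 4. Cald1, which encodes the actin- and myosin-binding protein caldesmon, stood at 326, 344, 272 and 318 CPM and at 471, 487, 359 and 398 CPM in the same order. The groups did not overlap for either gene. Log2 fold changes were 0.45 ± 0.16 for Tpm1 and 0.44 ± 0.16 for Cald1 (SE, edgeR adjusted p = 0.435 and 0.432), and with the block the adjusted p values were 0.0364 and 0.0474.

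Acta2, the smooth muscle α-actin gene (chromosome 19, 34241090 to 34255590), stood at 82.1, 416, 264 and 282 CPM in PDGFRα- libraries 1 to 4 and at 130, 496, 334 and 266 CPM in PDGFRα+ libraries 1 to 4. Libraries numbered 1 were the lowest of each group and those numbered 2 the highest, and the groups overlapped across most of their range. For Acta2, a log2 fold change of 0.23 ± 0.53 (SE, edgeR adjusted p = 0.989) resulted. Its 95% interval ran from -1.01 to 1.47 without the block and from 0.02 to 0.57 with it (edgeR adjusted p = 0.375).

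Actg2, the γ-actin gene of enteric smooth muscle, was lower in the PDGFRα+ library of every same-numbered pair, unlike Acta2. It stood at 23.0, 98.6, 63.0 and 65.4 CPM in PDGFRα- libraries 1 to 4 and at 14.9, 72.5, 51.6 and 36.2 CPM in PDGFRα+ libraries 1 to 4. Its log2 fold change of -0.51 ± 0.53 (SE, edgeR adjusted p = 0.970) did not pass, nor did -0.55 ± 0.16 (SE, edgeR adjusted p = 0.103) with the block. The authors' deposited table lists a log2 fold change of -0.564 with an adjusted p of 0.0464 for it.

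The other thin filament genes spread around no change. Cnn1, the smooth muscle calponin gene, was at 27.1 ± 18.4 and 17.5 ± 9.22 CPM and Lmod1, which encodes an actin filament nucleator, at 28.4 ± 18.1 and 32.5 ± 19.1 CPM (SD, n = 4). Tagln, which encodes the actin-binding protein SM22α, stood at 111 ± 55.5 and 112 ± 45.4 CPM. The tropomyosin gene Tpm2 was at 134 ± 52.9 and 133 ± 41.2 CPM, and Smtn, the smoothelin gene, at 116 ± 22 and 139 ± 20.3 CPM. Exons of Tagln and Smtn overlap genes on the other strand.

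In the myosin motor group 0 of 4 genes passed in either fit, and 0 had an unadjusted p under 0.05. Myh11, the smooth muscle myosin heavy chain gene (chromosome 16, 14194535 to 14291372), stood at 173, 936, 487 and 605 CPM in PDGFRα- libraries 1 to 4 and at 188, 577, 566 and 463 CPM in PDGFRα+ libraries 1 to 4. The groups overlapped, with the highest library in PDGFRα- cells. Myh11 had a log2 fold change of -0.30 ± 0.52 (SE, edgeR adjusted p = 0.984) and -0.19 ± 0.14 (SE, edgeR adjusted p = 0.713) with the block.

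Myl9, a regulatory light chain gene, was at 33.1, 71.7, 65.7 and 70.6 CPM in PDGFRα- libraries 1 to 4 and at 44.9, 85.7, 63.2 and 68.3 CPM in PDGFRα+ libraries 1 to 4. The libraries numbered 1 were again the lowest of each group, and the rest overlapped. Myl6, an essential light chain gene, stood at 146 ± 28.3 and 168 ± 34.6 CPM and Mylk, the myosin light chain kinase gene whose exons overlap antisense genes, at 337 ± 65.4 and 344 ± 57.5 CPM. Of the 50-base words in Myl6 transcripts, 8.378% also occur in transcripts of other genes, above all Gm5526, so reads could be split there. This share was at most 1.223% for the other 32 members.

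Of the genes that tune contraction, 0 of 4 passed in either fit, and 0 had an unadjusted p under 0.05. Ppp1r14a, which encodes the inhibitor CPI-17 of myosin phosphatase, stood at 37.3, 41.1, 50.1 and 35.1 CPM in PDGFRα- libraries 1 to 4 and at 29.8, 41.8, 43.2 and 47.9 CPM in PDGFRα+ libraries 1 to 4. Ppp1r12b, a myosin phosphatase targeting subunit gene, was at 104, 185, 133 and 143 CPM and at 108, 152, 126 and 144 CPM in the same order. The groups overlapped for both, and the 95% intervals of the log2 fold change ran from -0.45 to 0.44 for Ppp1r14a and from -0.49 to 0.31 for Ppp1r12b. Kcnmb1, the β subunit gene of the large-conductance potassium channel, and Hspb6, a small heat shock protein gene, were scarce, at 5.27 ± 2.90 and 8.27 ± 4.77 CPM and at 6.81 ± 5.10 and 4.59 ± 2.50 CPM. Exons of Ppp1r12b and Hspb6 overlap genes on the other strand.

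The 10 adhesion and Z-disc type genes had a median log2 fold change of 0.36, against -0.01 for all genes tested. None passed for groups alone (4 at an unadjusted p under 0.05), and Pdlim3 and Fhl1 passed with the block. Pdlim3, which encodes an α-actinin-binding PDZ and LIM protein (chromosome 8, 45885461 to 45919548), stood at 16.7, 65.1, 30.6 and 32.3 CPM in PDGFRα- libraries 1 to 4 and at 34.9, 109, 79.0 and 85.6 CPM in PDGFRα+ libraries 1 to 4. The groups overlapped, but the PDGFRα+ library was higher in each same-numbered pair. Pdlim3 had a log2 fold change of 1.09 ± 0.44 (SE, edgeR adjusted p = 0.636) and 1.14 ± 0.17 (SE, edgeR adjusted p = 0.00115) with the block.

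Fhl1, a relative of Fhl2 found in muscle sarcomeres and at focal adhesions, stood at 402, 317, 338 and 325 CPM in PDGFRα- libraries 1 to 4 and at 486, 586, 513 and 408 CPM in PDGFRα+ libraries 1 to 4. The groups did not overlap, with the closest libraries at 402 and 408 CPM. Fhl1 had a log2 fold change of 0.53 ± 0.16 (SE, edgeR adjusted p = 0.3002) and 0.52 ± 0.12 (SE, edgeR adjusted p = 0.0371) with the block. Csrp1, which encodes a cysteine-rich LIM protein of actin bundles, was at 156, 264, 172 and 244 CPM and at 223, 348, 271 and 276 CPM in the same order. Csrp1 overlapped between groups, with PDGFRα+ above PDGFRα- at each of the 4 numbers (blocked log2 fold change 0.44 ± 0.12 SE, edgeR adjusted p = 0.0715).

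Vcl, Actn1 and Flna encode vinculin, α-actinin 1 and filamin A, which tie actin filaments to adhesions and to each other. Their log2 fold changes were 0.42, 0.41 and 0.32, with edgeR adjusted p values of 0.636, 0.456 and 0.872 for groups alone and 0.0836, 0.108 and 0.140 with the block. Each had PDGFRα+ above PDGFRα- at all 4 numbers. The authors' deposited table lists adjusted p values of 0.0303, 0.0496 and 0.0339 for them, and 0.0170 for Csrp1. Exons of Vcl and Actn1 overlap genes on the other strand, over 2090 bases for Vcl and Ap3m1.

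Of these genes, 3 had negative fold changes. Pgm5, whose product aciculin binds dystrophin and adhesion complexes, was at 45.8 ± 19.4 and 29.9 ± 10.6 CPM and lower in the PDGFRα+ library of all 4 pairs. Ldb3, the gene of a Z-disc protein of muscle, was scarce at 3.96 ± 2.04 and 1.69 ± 0.19 CPM, and its groups did not overlap. Neither passed (edgeR adjusted p = 0.774 and 0.834, and 0.306 and 0.681 with the block). Pdlim7 was at 152 ± 14.5 and 140 ± 17.1 CPM and Synpo2, which encodes the actin-bundling protein synaptopodin 2, at 65.5 ± 22.8 and 72.5 ± 16.6 CPM.

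The muscle intermediate filament genes differed in sign and neither passed. Des, the desmin gene, stood at 19.7, 58.8, 33.6 and 52.9 CPM in PDGFRα- libraries 1 to 4 and at 23.5, 49.98, 32.3 and 17.6 CPM in PDGFRα+ libraries 1 to 4. Synm, the synemin gene, stood at 54.8, 64.3, 57.5 and 50.05 CPM and at 49.0, 85.5, 102 and 61.4 CPM in the same order. Both overlapped between the groups, and neither had an unadjusted p under 0.05. Des had its lowest value in the PDGFRα+ library numbered 4. Exons of Des and Synm overlap genes on the other strand.

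Npnt encodes nephronectin, a matrix ligand of an integrin that smooth muscle carries. It stood at 18.3, 122, 80.2 and 64.3 CPM in PDGFRα- libraries 1 to 4 and at 18.1, 80.1, 66.4 and 27.5 CPM in PDGFRα+ libraries 1 to 4. It was lower in the PDGFRα+ library of each pair, by little in the libraries numbered 1. Npnt had a log2 fold change of -0.56 ± 0.65 (SE, edgeR adjusted p = 0.970) and -0.53 ± 0.19 (SE, edgeR adjusted p = 0.209) with the block.

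Across the 33 members, the PDGFRα+ library was higher in all 4 same-numbered pairs for 13 genes and lower in all 4 for 4 genes, where 10.3% and 10.5% of all genes tested did so. The groups did not overlap for 6 members, 5 with PDGFRα+ higher (Fhl2, Cald1, Tpm1, Actn1 and Fhl1) and 1 with it lower (Ldb3), against 2.69% and 2.36% of all genes (5.05% in either direction). Because members were chosen with earlier results of these data known, these shares are no independent background for them. The median log2 fold change was 0.19 over the 33 genes and 0.13 over the 30 without the regulators.

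Many members, contractile genes among them, differed widely between replicate numbers. Between libraries numbered 1 and 2, Npnt differed 6.65-fold in PDGFRα- and 4.44-fold in PDGFRα+ cells, Lmod1 6.61-fold and 5.17-fold, Myh11 5.41-fold and 3.07-fold, Acta2 5.07-fold and 3.82-fold and Myocd 4.97-fold and 4.38-fold. For 14 of 33 members, number 1 was the lowest and number 2 the highest library in both groups, against 0.914% of all genes tested. The numbers for this count were picked after the values were seen. When the replicate number was itself tested with edgeR, keeping the group in the fit, 13 of 33 members passed, against 4.28% of all genes. These were 6 of 9 actin and thin filament genes, 2 of 4 myosin genes, 2 of 3 regulators, 2 of 10 adhesion and Z-disc type genes and Npnt.

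Other members were steadier. Srf, Actn1, Pdlim7, Fhl1 and Cald1 varied by at most 1.47-fold within a group. Acta2 (edgeR adjusted p = 7.0e-05), Myocd (2.4e-04) and Myh11 (2.5e-04) had low adjusted p values in the test of the number, while Srf (0.893), Actn1 (0.855) and Fhl1 (0.748) did not pass it. In bulk RNA, fewer contractile cells and less contractile RNA per cell cannot be told apart.

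**Figure D3:**
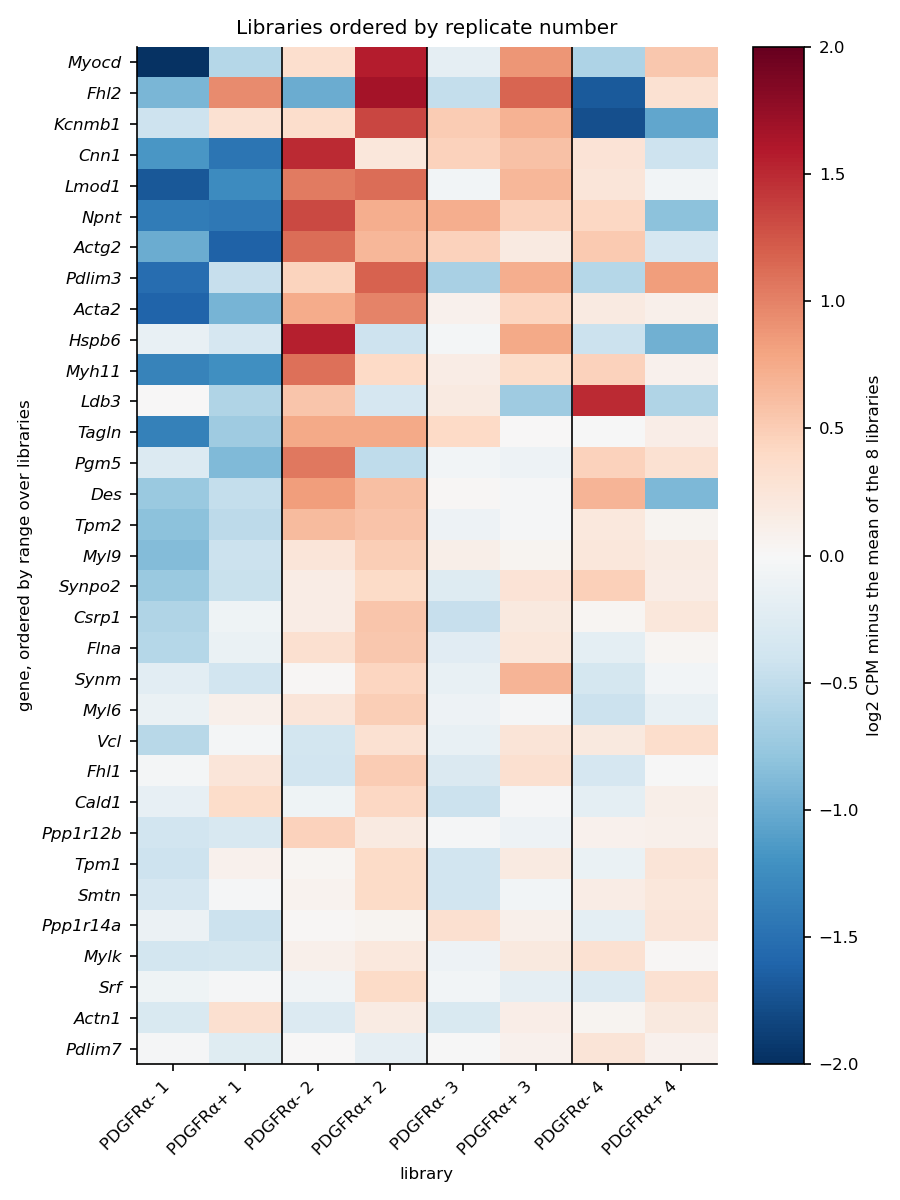
Log2 CPM of each member minus its mean over the 8 libraries (colour, from -2 to 2), libraries ordered by replicate number and genes by their range. The contractile genes Acta2, Lmod1 and Myh11 and the matrix gene Npnt are blue in both libraries numbered 1 and red in both numbered 2, whereas Fhl2 alternates with the sort.

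Markers of other cells were read beside this order. Summed pericyte markers (10 genes, Higd1b at 0 in all libraries) were at 1813 CPM in PDGFRα- and 1452 CPM in PDGFRα+ library 1, and at 1147 and 982 CPM in the libraries numbered 2. Most of this sum was Rgs5 (1467 and 1110.5 CPM in the libraries numbered 1, 718 and 561.5 CPM in those numbered 2). Pdgfrb had the opposite order (208 and 198 CPM in the libraries numbered 1, 303 and 287 CPM in those numbered 2). Summed markers of the interstitial cells of Cajal (4 genes) were 7.12 CPM in PDGFRα- library 1 and 16.2 to 37.5 CPM in the other libraries. Of the 20.4 CPM in PDGFRα+ library 1, Etv1 made up 19.5 CPM, with Kit at 0.086 and Ano1 at 0.26 CPM. In PDGFRα- library 1, Etv1, Kit and Ano1 were at 4.11, 0.69 and 2.32 CPM. Kit and Ano1 were lower in the PDGFRα+ library of all 4 pairs, whereas Etv1 was higher in 3 and Hcn4 in 2. Endothelial markers (7 genes) ran from 22.1 to 551 CPM in PDGFRα- and from 17.6 to 107 CPM in PDGFRα+ libraries, highest in those numbered 4. Enteric glia and neuron markers (8 genes, Tubb3 at 0 in all libraries) stayed at or under 17.7 CPM. Leukocyte markers (8 genes, Itgam at 0 in all libraries) ran from 41.1 to 157 and from 21.5 to 70.2 CPM, and epithelial markers (7 genes) from 3.18 to 24.8 and from 1.29 to 5.42 CPM. With the block, 4 of 8 fibroblast markers were called lower in PDGFRα+ cells (Col1a1, Col1a2, Col3a1 and Dpt) and Pdpn higher. Of the pericyte markers, Abcc9 was called lower and Cspg4 higher in that fit. Over all genes tested, 0.933% were called lower and 1.34% higher with the block. For groups alone, 0 genes of these marker lists were called. The part of these cells in the member levels was not tested. Of the skeletal muscle markers, Tnnt3 stood at 21.9 ± 8.0 and 20.3 ± 11.4 CPM (SD, n = 4 each). The others had means under 1 CPM in both groups (Acta1 at 0.31 and 0.38, Myh4 at 0 and 0.03 CPM).

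Set against contractile RNA in the same library, Myocd differed between the sorted fractions without overlap. Per 100 CPM of Acta2, Myocd had 12.6, 12.4, 13.6 and 9.45 CPM in PDGFRα- libraries 1 to 4 and 21.2, 24.3, 22.6 and 22.3 CPM in PDGFRα+ libraries 1 to 4. The ratio thus stayed within a narrow band in each group while Acta2 itself varied widely. Per 100 CPM of Myh11, the values of Myocd were 4.41 to 7.37 in PDGFRα- and 12.8 to 20.9 in PDGFRα+ libraries. Pdlim3 behaved likewise, at 11.4 to 20.3 and 21.99 to 32.2 per 100 Acta2 reads.

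In the other direction, Actg2 lay at 23.1 to 28.1 in PDGFRα- and 11.4 to 15.5 in PDGFRα+ libraries per 100 Acta2 reads, Npnt lay at 22.3 to 30.4 and 10.3 to 19.9, and Myh11 at 184 to 225 and 116 to 174. Of 32 members, these 2 higher and 3 lower were the ones whose ratio to Acta2 did not overlap between the groups. The same held for 0.205% and 0.652% of 15642 genes. Acta2 varied 5.07-fold within PDGFRα- and 3.82-fold within PDGFRα+ cells, so a gene that does not vary with it tends to overlap in this ratio. These shares are therefore no matched background for members that vary with Acta2. Fhl2, without overlap in CPM, overlapped in the ratio (5.73 to 33.2 in PDGFRα- and 23.9 to 76.6 in PDGFRα+ libraries). With Myh11 as the reference, 3 members were higher without overlap (Myocd, Pdlim3 and Acta2) and 0 lower, against 0.582% and 0.294%, so the lower ratios of Actg2 and Npnt depend on the choice of Acta2. Shares with Myh11 as the reference have the same limit. The reference genes were chosen after the values were seen, and no test was made.

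**Figure D4:**
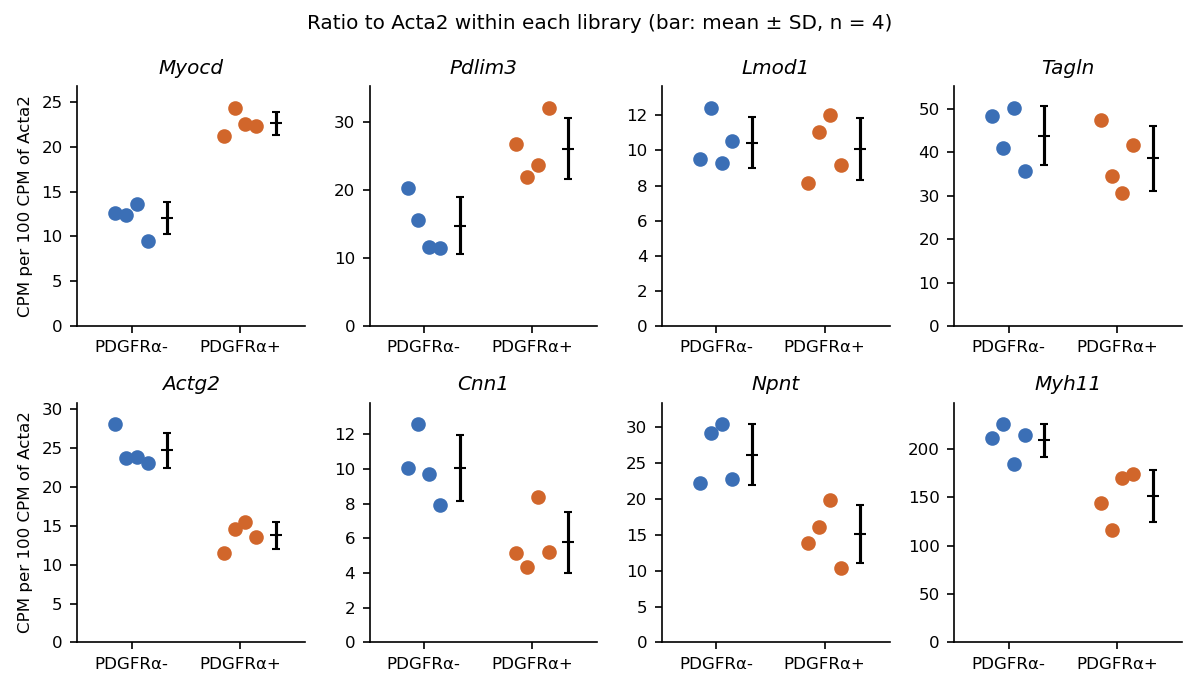
Reads of 8 members per 100 reads of Acta2 within each library (y axis, CPM ratio, linear, from 0), with mean and SD beside each group of 4. Myocd sits at 9.45 to 13.6 in PDGFRα- and 21.2 to 24.3 in PDGFRα+ libraries, Actg2 moves the other way, and Lmod1 and Tagln overlap.

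Over 13 contractile genes (actin, thin filament and myosin motor), log2 CPM averaged 6.12, 7.57, 7.001 and 7.13 for PDGFRα- libraries 1 to 4, and 6.38, 7.54, 7.19 and 7.01 for PDGFRα+ libraries 1 to 4. The log2 level of Myocd relative to this mean was -2.22 ± 0.44 and -1.07 ± 0.40 (SD, n = 4 each), a difference of 1.15. For Fhl2 the relative level was -2.28 ± 0.84 and -0.32 ± 0.53, a difference of 1.96, and for Srf it was -1.27 ± 0.62 and -1.10 ± 0.43, a difference of 0.17 that is within the spread.

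Other genes of the pathway were read from lists. Their calls stand beside 0.192% higher and 0.0511% lower of all genes for groups alone, 1.34% and 0.933% with the block, and unadjusted p values under 0.05 in 6.95% and 11.7%. Of 17 genes listed as SRF coactivators and partner factors, 1 was called higher for groups alone, the T-box repressor gene Tbx2 (18.0 ± 3.96 and 66.2 ± 29.8 CPM, edgeR adjusted p = 0.0187). With the block, 3 were called higher and 1 lower. The higher genes were Tbx2, the gut mesenchyme homeobox gene Nkx2-3 (86.8 ± 8.88 and 144 ± 30.8 CPM) and the repressor gene Hic1 (53.1 ± 10.4 and 79.2 ± 7.26 CPM). The lower gene was Klf4, which encodes a repressor of smooth muscle genes (732 ± 129 and 482 ± 167 CPM, blocked edgeR adjusted p = 0.0118). Genes of the myocardin-related factors, Mkl1 and Mkl2, stood at 92.0 ± 10.1 and 94.5 ± 20.7 CPM and at 67.8 ± 18.5 and 79.0 ± 22.3 CPM and did not pass. Elk1, Elk3 and Elk4 of this list did not pass in either fit.

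Of 10 genes listed as immediate early SRF targets, 8 had negative fold changes, and Ctgf and Cyr61, both matricellular protein genes, had positive ones. None passed for groups alone (4 at an unadjusted p under 0.05), and with the block Fos (3311 ± 384 and 2080 ± 692 CPM) and Junb (1219 ± 213 and 874 ± 313 CPM) were called lower. Exons of Ctgf and Junb overlap genes on the other strand. Ctgf was called higher with the block (31.4 ± 17.3 and 91.2 ± 64.4 CPM, blocked edgeR adjusted p = 0.00192). The median log2 fold change of the 10 was -0.31.

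Of 28 other cytoskeletal SRF targets, 1 was called higher for groups alone (0.192% of all genes) and 6 higher and 1 lower with the block (1.34% and 0.933% of all genes). Cnn2, a calponin gene of non-muscle cells, passed both (23.6 ± 1.40 and 59.0 ± 20.6 CPM, edgeR adjusted p = 0.0363 for groups alone). Tpm4, Myh9 and Tagln2, non-muscle relatives of Tpm2, Myh11 and Tagln, were called higher with the block alone (144 ± 30.5 and 281 ± 53.0 CPM, 501 ± 48.6 and 857 ± 120 CPM, and 79.5 ± 22.6 and 129 ± 22.9 CPM). Ilk, the integrin-linked kinase gene, and Tgfb1i1, which encodes the focal adhesion protein Hic-5, were also called higher with the block, and the caveolin gene Cav1 lower (35.1 ± 18.9 and 14.6 ± 6.57 CPM). Exons of Tpm4 and Ilk overlap other genes.

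The ratio of the non-muscle to the muscle relative was higher in the PDGFRα+ library in 4 of 4 same-numbered pairs for Cnn2 over Cnn1, Tpm4 over Tpm2 and Myh9 over Myh11, and in 3 of 4 for Tagln2 over Tagln and for Actb over Acta2. Groups overlapped in each of these ratios (0.536 to 2.49 and 1.74 to 3.22 for Tpm4 over Tpm2). Cnn2, Tpm4, Myh9 and Tagln2 had already been called higher with the block, so these ratios are no separate support. The pairs were not part of the planned comparisons, and other relatives of the list were left out. Of these, Tpm3 and Actg1 had negative log2 fold changes for groups alone (-0.20 and -0.16) and Cnn3 and Myh10 positive ones (0.19 and 0.25). Whether the relatives changed differently was not tested.

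Of 19 tested genes of calcium handling and receptors, 0 passed for groups alone (7 at an unadjusted p under 0.05, against 6.95% of all genes). With the block, Gucy1a1, a subunit gene of the nitric oxide receptor guanylate cyclase, was called higher (145 ± 14.8 and 207 ± 37.0 CPM), and Kcnma1, the pore subunit gene of the channel that Kcnmb1 modulates, lower (110 ± 27.4 and 60.8 ± 16.4 CPM), against 1.34% and 0.933% of all genes. Both overlap other genes in their exons. The muscarinic receptor gene Chrm2, chosen after its values were seen, stood at 36.5 ± 19.6 and 6.95 ± 5.40 CPM without overlap between the groups and did not pass (edgeR adjusted p = 0.563, and 0.538 with the block).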

How the data were processed

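Sorted cells were profiled with a stranded total RNA kit for small inputs, per the labels' protocols. Per the submitters' processing notes, cutadapt 3.4, STAR 2.7.3a, featureCounts 2.0.1 and DESeq2 were used with GRCm38 (mm10). Their parameters, strand setting and annotation release were not given in the sources used here. As raw data per gene and library, the authors deposited whole-number counts. Their table also holds size-factor scaled, rounded counts, treated as a score, dispersions (also a score), and the authors' ratio (fold change), log2 fold change and p-value per gene. Amplified reads lacking molecular identifiers do not stand for separate molecules.

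Counts were fitted with edgeR 4.0.16 in R 4.3.3 (TMM, filterByExpr leaving 15643 genes, robust quasi-likelihood test, group as the only term), with p-values adjusted over all genes tested and a threshold of 0.05. CPM used the TMM-scaled library sizes, and RPKM divided these by the union exon length of GENCODE M21, which holds 53706 of 53801 identifiers. No row lacked a gene, and 24547 rows were 0 throughout. Alternatives were the replicate number as a block, DESeq2 1.42.0, limma-voom (limma 3.58.1), DESeq2 size factors, no filter, and leaving out libraries. Library deviations from their group mean correlated, within a number, at 0.36, 0.22, 0.07 and 0.36 for numbers 1 to 4, and the value for number 3 is under the minimum of 0.1 for pairing, so the correlations do not establish pairs. The edgeR fits with and without the block were also run on simulated counts. Those counts held no effect of the replicate number, so they cannot check what the block changes. The rule named all 33 members, with values per library for the regulators, the called members and the 2 most abundant of each role, and the called members of each pathway list or else its 2 most abundant. The result of 1 pathway list is not reported here. Members and lists were chosen with earlier results of these data known. Intervals are model-based and, like counts, cover no bias of amplification.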

Additional observations from a re-analysis of the deposited data

Results flagged for a closer look

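A single PDGFRα- library stood apart from the other 3 in 4 of the 66 groups of libraries examined (33 genes in each of the sorted fractions). This count is near the 1 in 20 or so that chance gives. Myl9 was at 33.1 CPM in PDGFRα- library 1, against 65.7 to 71.7 CPM in the others. Hspb6 was at 14.4 CPM in PDGFRα- library 2, against 3.62 to 4.76 CPM. Actn1 was at 177 CPM in PDGFRα- library 4, against 137 to 140 CPM, and Pdlim7 at 174 CPM in the same library, against 143 to 147 CPM. Libraries of PDGFRα+ cells gave no such case among these genes. With a count near chance, this is not read as a difference between the groups.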

How the results depend on the processing

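Over all genes, 38 calls in the comparison of groups alone became 355 with the replicate block, 207 with DESeq2, 277 without the filter on low counts and 805 with DESeq2 and the block, an alternative added after seeing the data. They ranged from 7 to 49 when a library was left out, and were 196, 281, 99 and 300 with the block and number 1, 2, 3 or 4 left out. Members called higher were 1 for groups alone, 6 with the block, 10 with DESeq2 and the block and 2 without the filter, where Pdlim3 joined Fhl2. They were 0 to 1 with a library left out and 3 to 4 with the block and a number left out. Members called lower were 0 in these fits except 1, Actg2, with DESeq2 and the block.

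Fhl2 stayed higher throughout, with log2 fold changes of 1.81 to 2.26 when a library was left out. Myocd had log2 fold changes of 1.22 with the block, 1.20 with DESeq2 and the block, 0.80 to 1.54 with a library left out and 1.15, 1.22, 1.26 and 1.24 with the block and number 1, 2, 3 or 4 left out, and was called in the blocked fits alone. With a library left out, the group difference (PDGFRα+ minus PDGFRα-) in log2 level relative to contractile genes ran from -0.02 to 0.46 for Srf. This difference ran from 0.97 to 1.32 for Myocd and from 1.69 to 2.27 for Fhl2.

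Signs turned for some members that were not called for groups alone. Tpm2 had log2 fold changes of 0.035 with the block, 0.030 with limma-voom, 0.021 with DESeq2 and the block and 0.0051 without the filter, Tagln of -0.0073 with DESeq2 size factors and -0.0074 with DESeq2, and Ppp1r14a of 0.0052 without the filter. With a library left out the ranges were -0.10 to 0.55 for Acta2, -1.01 to 0.11 for Hspb6, -0.18 to 0.65 for Lmod1, -0.59 to 0.087 for Myh11, -0.082 to 0.26 for Myl9, -0.074 to 0.15 for Mylk, -0.21 to 0.067 for Ppp1r12b, -0.091 to 0.12 for Ppp1r14a, -0.029 to 0.37 for Synpo2, -0.27 to 0.29 for Tagln and -0.22 to 0.24 for Tpm2. With the block, signs turned for Tagln (-0.077) and Ppp1r14a (0.083) without number 1, for Tpm2 (0.078), Ppp1r12b (0.0012) and Hspb6 (0.036) without number 2, for Tpm2 (0.018), Mylk (-0.055) and Ppp1r14a (0.048) without number 3, and for Tpm2 (0.10) without number 4. In edgeR, the block changed the calls of Myocd, Pdlim3, Fhl1, Tpm1 and Cald1 and of no other member, and in DESeq2 it took members from 1 to 10 called higher and from 0 to 1 called lower. The cause of these shifts was not tested.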
